A study of Bos taurus with 46 samples.

Results

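Maternal leukocytes on D105 of gestation were compared between 8 heifers that carried a control fetus conceived by artificial insemination (AI) and 9 heifers that carried an in vitro produced fetus with large offspring syndrome (IVP-LOS, labelled ARTLOS). These 17 libraries were chosen by the day and the group in the labels, out of 46 libraries in all, and each came from a different heifer. The heifers were young Angus crossbreds. IVP embryos came from Angus or Angus crossbred oocytes fertilized with semen of a single Brahman bull, were cultured to the blastocyst stage with serum, and were transferred as a pair to each recipient. A fetus was classed as LOS from its weight at D105, against an upper limit set by the AI fetuses. Heifers 557 and 604 of the IVP-LOS group carried more than 1 fetus. Heifers 604 and 664 carried the heaviest fetuses, so results are given with and without both. The way of conception, embryo transfer and fetal size differed together between the groups and cannot be told apart. White cells were taken from the buffy coat of tail blood after lysis of red cells, and total RNA was isolated. The study describes paired-read sequencing of leukocyte mRNA, and all 17 libraries carry the same set name, BACKUP.

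Calves and lambs from in vitro embryos can grow far too large before birth, which endangers dam and newborn at delivery, and this disorder is called large offspring syndrome. Circulating leukocytes are a mixture of neutrophils, monocytes and lymphocytes, and platelets can be carried along in the buffy coat. In pregnant cattle these cells meet interferon tau and progesterone signals from the conceptus and the ovary, so their transcripts have been studied as markers of pregnancy. Neutrophils are short-lived phagocytes with little RNA, and in cattle lymphocytes usually outnumber them in blood. The comparison asks whether the leukocyte transcriptome of a dam differs when her fetus is overgrown.

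The AI libraries held 22101799 to 23366657 reads on genes and the IVP-LOS libraries 18692653 to 24473385. *PTPRC*, the CD45 gene carried by leukocytes, lay between 1922 and 2377 CPM (its reads scaled to a common library size) in AI and between 1845 and 2338 in IVP-LOS. Reads on no annotated gene made up 25.1 to 31.1% of the AI libraries and 25.2 to 38.6% of the IVP-LOS libraries, and 604 (38.6%) and 664 (36.7%) were the highest. The group means differed by 2.1 percentage points (exact permutation test over 24310 groupings, two-sided, p = 0.284, 0.284 adjusted over the 2 measures compared with all 17 libraries). Without 604 and 664 the difference was -0.0751 points (exact p = 0.944), and in the counts on Ensembl genes it was -1.17 points (exact p = 0.266). In those Ensembl counts 604 (25.7%) and 664 (26.5%) had the lowest share of the 17 libraries, so their place depends on the gene set.

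No gene passed the test between AI and IVP-LOS on D105. Of 15283 genes tested with edgeR's quasi-likelihood test, 0 passed a false discovery rate (FDR) of 0.05, which is 0% of those tested. At an unadjusted p of 0.05 or less, 464 genes were higher in IVP-LOS (3.04% of genes tested) and 416 were lower (2.72%). Without 604 and 664 the count at FDR stayed at 0 of 15347 genes, with 226 higher (1.47%) and 257 lower (1.67%) at the unadjusted limit. The median log2 fold change over all genes was 0.03 with all 17 libraries and 0.02 without 604 and 664.

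The 95% interval of the fold change lay within 1.5-fold in either direction for 9289 genes (60.8%) and within 2-fold for 12739 (83.4%). Myeloid and platelet genes had wide intervals. The interval lay within 2-fold for 0 of 15 neutrophil markers, 3 of 15 monocyte markers and 1 of 12 platelet markers, against 22 of 22 T cell markers and 15 of 15 B cell markers.

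Likelihood ratio tests gave calls whose number depended on the model. The edgeR likelihood ratio test called 11 genes, all lower in IVP-LOS (0.072% of genes tested). DESeq2's likelihood ratio test called 43, of which 41 were lower (0.268%) and 2 higher (0.0131%). Both tests called the same 11 genes. The methods of the study paired the edgeR test with removal of unwanted variation, and also name TMM scaling for it. They give neither the kind nor the number of factors, so the setting used here may differ from theirs. With 1 such factor, that test called 748 genes lower (4.89%) and 159 higher (1.04%). The factor was estimated from the residuals of the same counts that were tested. The factor scores were 0.548 in 637, -0.441 in 604 and -0.497 in 664, against -0.189 to 0.264 in the other 14 libraries. DESeq2 replaced outlying counts in groups of 7 or more libraries before testing, and in 25 of its 43 called genes it replaced a count of heifer 637. When DESeq2 was run without replacement it called 11 genes, all of them among the 43 and 10 of them among the 11 of edgeR. Without 604 and 664, the edgeR likelihood ratio test called 2 genes and DESeq2 called 5.

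**Figure D1:**
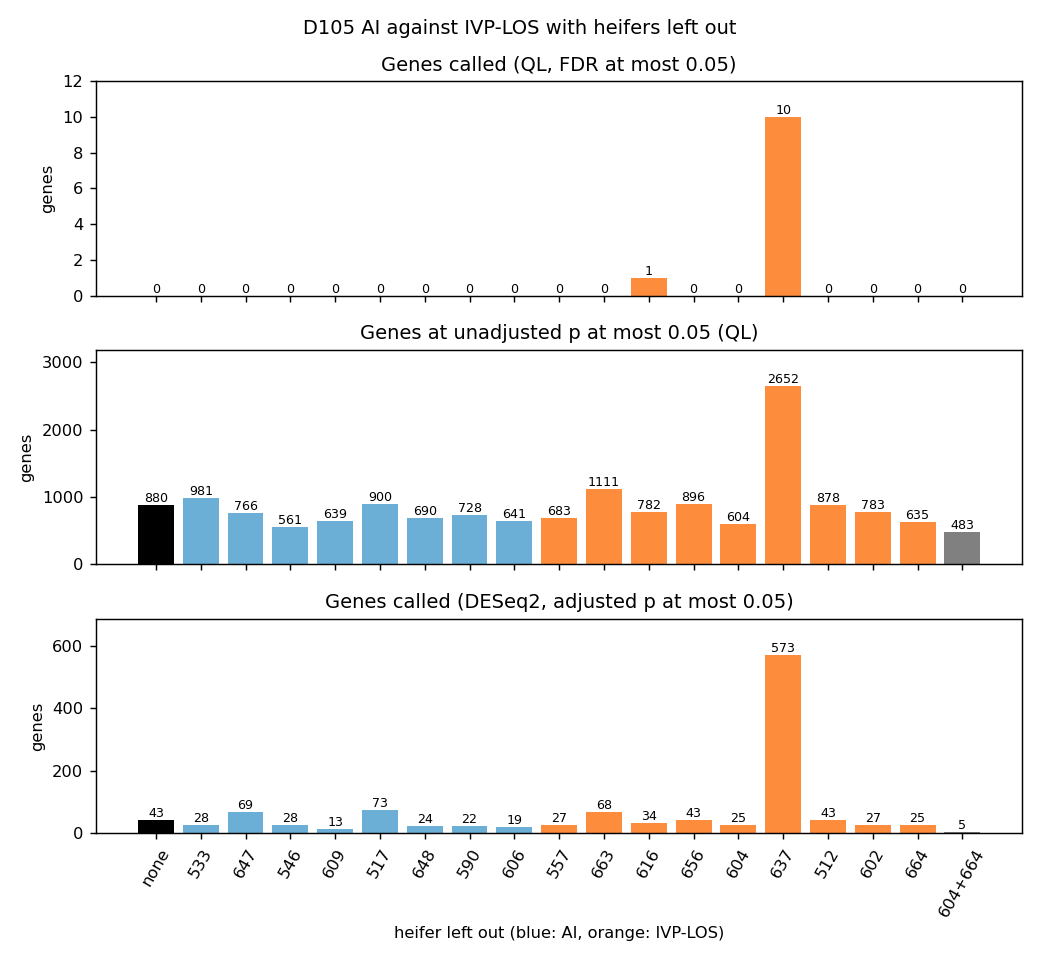
Bars show the number of genes that passed each limit on D105 with all 17 libraries (black), with 1 heifer left out (blue for AI, orange for IVP-LOS) or with 604 and 664 left out (grey). The upper and middle panels are edgeR's quasi-likelihood test (QL) and the lower panel is DESeq2. Leaving out heifer 637 gave the tallest bar in all 3 panels, with 10, 2652 and 573 genes.

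The gene with the lowest p was *LOC107131224*, a locus with no named product. It lay between 35.4 and 143 CPM in AI (median 71.4) and between 1.27 and 28.4 CPM in IVP-LOS (median 4). The highest IVP-LOS library, 616 at 28.4 CPM, was still below the lowest AI library, so the groups did not overlap. The log2 fold change was -3.17 ± 0.53 (SE), with an FDR of 0.175 by the quasi-likelihood test of edgeR and 1.88e-05 by its likelihood ratio test. Without heifer 616 it was called by the quasi-likelihood test of edgeR (FDR 0.00462), and without 604 and 664 the log2 fold change was -3.28. On D55 the locus lay between 18.2 and 82.3 CPM in AI and between 1.45 and 28.2 CPM in IVP-LOS. Heifer 616 was again the highest IVP-LOS library, and with 604 (20.5 CPM) and 664 (20 CPM) it overlapped the AI range on that day. The D55 difference had an unadjusted p of 0.00251 and an FDR of 0.636 (edgeR's quasi-likelihood test).

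Only 2 genes had every IVP-LOS library below every AI library (0.0131% of genes tested), and 0 had every IVP-LOS library above. The second was *LOC104969458*, which lay between 1.23 and 2.36 CPM in AI and between 0.32 and 1.2 CPM in IVP-LOS. The gap is narrow and rests on few reads. Before scaling, IVP-LOS heifer 663 held 30 reads, against 28 in AI heifer 517 and 30 in AI heifer 647, so the reads overlapped. Its log2 fold change was -1.16 ± 0.23 on D105 and -0.05 on D55. Loci with no named product may share reads with similar copies, so their values are uncertain.

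The other 9 genes called by both likelihood ratio tests were *LOC107132917*, *LOC512863*, *LOC112445870*, *LOC112442735*, *LOC104974259*, *LOC504773*, *LOC101906463*, *SLC22A14*, a member of the organic ion transporter family, and *MAB21L3*. Their log2 fold changes ran from -2.28 (*LOC104974259*) to -0.96 (*LOC504773*) with all libraries, and from -2.02 to -0.91 without 604 and 664. In each of the 9 genes all 9 IVP-LOS libraries lay below the AI median. This and like counts below describe genes picked by their difference in these same libraries, so they are no separate support. *LOC504773* lay at 9.86 to 21.5 CPM in AI (median 16.4) and 4.28 to 12.3 CPM in IVP-LOS (median 8.58). *LOC512863* lay between 6.64 and 37.3 CPM in AI (median 16) and between 2.82 and 12.3 CPM in IVP-LOS (median 4.84). Its log2 fold change on D55 was -1.24 (unadjusted p = 0.00217, FDR 0.636, by edgeR's quasi-likelihood test).

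Among better known genes, *PITPNA*, which moves phosphatidylinositol between membranes, was among the genes called by DESeq2 alone. It lay between 126.1 and 147.1 CPM in AI (median 135.5) and between 111.01 and 127.4 CPM in IVP-LOS (median 116.2). All 9 IVP-LOS libraries were below the AI median and 8 were below the lowest AI library. The log2 fold change was -0.20 ± 0.05 (FDR 0.605 by the quasi-likelihood test, adjusted p = 0.00527 by DESeq2).

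Of the genes higher in IVP-LOS, *RANBP6*, an importin-like nuclear transport gene, had the lowest p. It lay between 47.2 and 51.5 CPM in AI (median 49.6) and between 51.2 and 63.9 CPM in IVP-LOS (median 58.8). All 9 IVP-LOS libraries exceeded the AI median and 7 exceeded the highest AI library. The log2 fold change was 0.21 ± 0.06 (FDR 0.754 by the quasi-likelihood test, adjusted p = 0.0339 by DESeq2). *THUMPD3*, which methylates transfer RNA, was the other gene that DESeq2 called higher, with 66.8 to 78.9 CPM in AI and 73.1 to 89.9 CPM in IVP-LOS (log2 fold change 0.18 ± 0.05). *RBM20*, a splicing regulator, had a log2 fold change of 0.55, *DANCR*, a long noncoding RNA, 0.38, *SH3PXD2A*, an adaptor of podosomes, 0.47, and *COX18*, needed to assemble cytochrome oxidase, 0.51. The remaining leading genes were *LOC515089*, *LOC112447444* and *LOC104968627*, with log2 fold changes of 0.41 to 0.73. None of these passed FDR 0.05 by edgeR's quasi-likelihood test.

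*LOC101903301*, the leading higher gene with the largest log2 fold change, rested on 2 heifers. IVP-LOS heifers 616 and 512 held 158 and 171 CPM. The other 7 IVP-LOS libraries and all 8 AI libraries lay between 2.54 and 5.38 CPM. The same 2 heifers were high on D55, at 160 CPM each, where the other 15 libraries lay between 2.74 and 4.28. The log2 fold change of 3.44 therefore describes 2 animals, and DESeq2, which replaced both counts, gave -0.02.

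**Figure D2:**
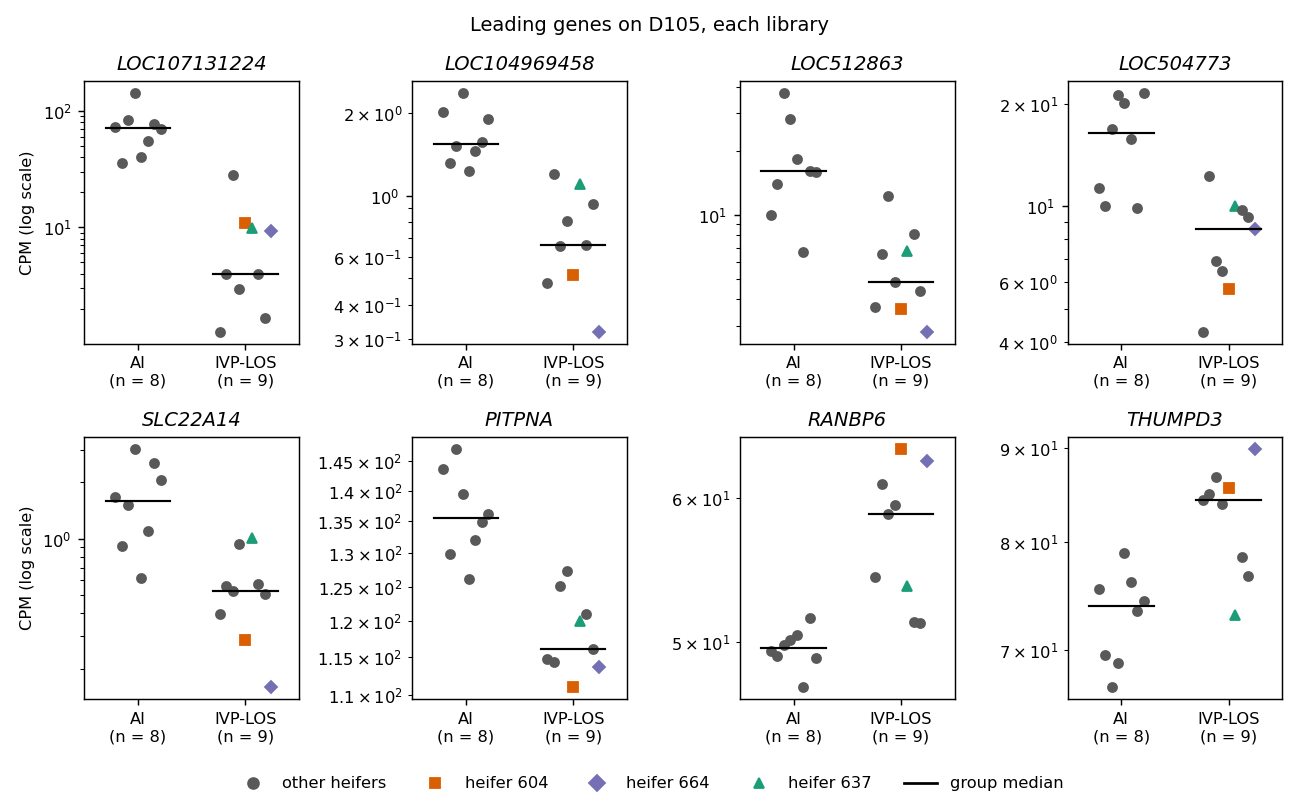
Points are the CPM of single libraries on a log axis for 8 leading genes, with AI at left and IVP-LOS at right, and lines are group medians. Heifers 604, 664 and 637 have their own symbols. *LOC107131224* and *LOC104969458* show no overlap in CPM between the groups, the latter only by 1.2 against 1.23 CPM, while the other 6 genes overlap.

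Genes of mature neutrophils spread widely within the IVP-LOS group. Neutrophil markers summed to 2833 to 6640 CPM in AI (median 4400) and to 720 to 16668 CPM in IVP-LOS (median 2262). Heifer 637 was the highest of the 17 libraries in 12 of the 15 neutrophil markers tested, and 604 (790 CPM) and 664 (720 CPM) had the lowest sums. Of 18 markers listed, 16 were in the table, and none of the 16 was at 0 in all libraries. Fewer neutrophils and less RNA per neutrophil cannot be told apart in such bulk samples. On D55 the list summed to 1249 to 2584 CPM in AI and to 947 to 2821 CPM in IVP-LOS, and 637 was again the highest library.

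With all 17 libraries, 0 of 15 neutrophil markers passed the unadjusted limit, and their median log2 fold change was -0.37, with 11 of the 15 below 0 (median of all genes 0.03). Without 604 and 664 the median was -0.10 and again 0 of 15 passed. Without 637, which was singled out after its values were seen, the median was -1.49, all 15 were lower and all 15 passed, against 9.69% of all genes lower and 7.72% higher. Without 604, 664 and 637 the median was -1.20 and 14 of 15 passed, all lower, against 7.37% of all genes lower and 3.07% higher. High values in these genes singled 637 out, so falls without it, here and in later lists, are no separate support.

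Leaving out heifer 637 also changed the calls at FDR 0.05. Without it the quasi-likelihood test of edgeR called 10 genes, all lower in IVP-LOS (0.0657% of genes tested). They were *C5AR1*, the receptor of complement C5a, *GPR84*, a fatty acid receptor of myeloid cells, *PLAUR*, the urokinase receptor, *SRGN*, the granule proteoglycan serglycin, *NFIL3*, a basic leucine zipper transcription factor, *UPP1*, a uridine phosphorylase, *CAPNS2*, *CFAP54*, *LOC104971388* and *LOC107131224*. Of these, *C5AR1*, *PLAUR*, *SRGN*, *CFAP54* and *LOC104971388* were named after their values were seen. Of the 10, 5 were among DESeq2's 43 calls with all libraries. Without 604, 664 and 637 together, the quasi-likelihood test called 0 genes and DESeq2 called 202.

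*C5AR1* lay between 222 and 448 CPM in AI (median 320) and between 64.4 and 190 CPM in 8 IVP-LOS libraries, whereas 637 held 887 CPM. The 8 libraries were all below the AI range and 637 was above it. Its log2 fold change was -0.64 with all libraries and -1.41 without 637. *GPR84* lay between 2.87 and 12.6 CPM in AI and reached at most 2.84 CPM in the same 8 libraries, with 44.3 CPM in 637 (log2 fold change -0.13 with all libraries, -1.95 without 637). *UPP1* lay between 21.1 and 56.6 CPM in AI and at or below 18.3 CPM in the 8 libraries, with 208 CPM in 637. *NFIL3* lay between 38.6 and 98.7 CPM in AI and at or below 38 CPM in the 8 libraries, with 259 CPM in 637. Leaving out 637, every IVP-LOS library lay below every AI library in 16 genes (0.105% of genes tested) and above in 3 (0.0196%).

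Further neutrophil genes were also named after their values were seen. *ALPL*, the tissue-nonspecific alkaline phosphatase, lay between 4.31 and 88.8 CPM in AI, at or below 3.79 CPM in 8 IVP-LOS libraries, and at 511 CPM in 637. Its log2 fold change was 1.55 with all libraries and -3.40 without 637, so 1 library turned its direction. *PROK2*, a chemoattractant-like secreted protein, turned from 0.91 to -2.32. *S100A12*, a calcium-binding calgranulin and the most counted neutrophil marker, lay between 733 and 2631 CPM in AI, between 225 and 1198 CPM in 8 IVP-LOS libraries and at 6111 CPM in 637, and its log2 fold change was -0.20 with all libraries and -1.20 without 637. *CXCR2*, the receptor through which neutrophils sense chemokines, had -1.12 and -2.12. DESeq2 called *ALPL* (adjusted p = 0.0137) and *PROK2* (adjusted p = 0.0119) lower in IVP-LOS with all 17 libraries, with 637's count replaced in both and 590's also in *ALPL*.

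The same heifers were sampled on D55, and all libraries of that day carry another set name, New. A caption of the study places D55 in winter and D105 in summer, whereas its discussion names autumn, spring and summer. Estrus was synchronized in separate rounds, and the round of each heifer was not used here. On D55, 637 lay within the range of the AI libraries in several of these genes. *GPR84* lay between 0.91 and 2.16 CPM in AI and between 1.02 and 2.03 CPM in IVP-LOS, with 637 at 2.03. *UPP1* was 6.72 CPM in 637, against at most 8.4 CPM in AI, and *ALPL* was 0.265 CPM in 637, against at most 0.779 CPM in AI. Of the 69 named genes, 637 was the highest D55 library in *IL1RN* (127.1 CPM against at most 103.3 in AI), *SRGN* (1425 against 1342) and *BATF3* (16.7 against 14.6). Day, season and library set cannot be told apart.

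**Figure D3:**
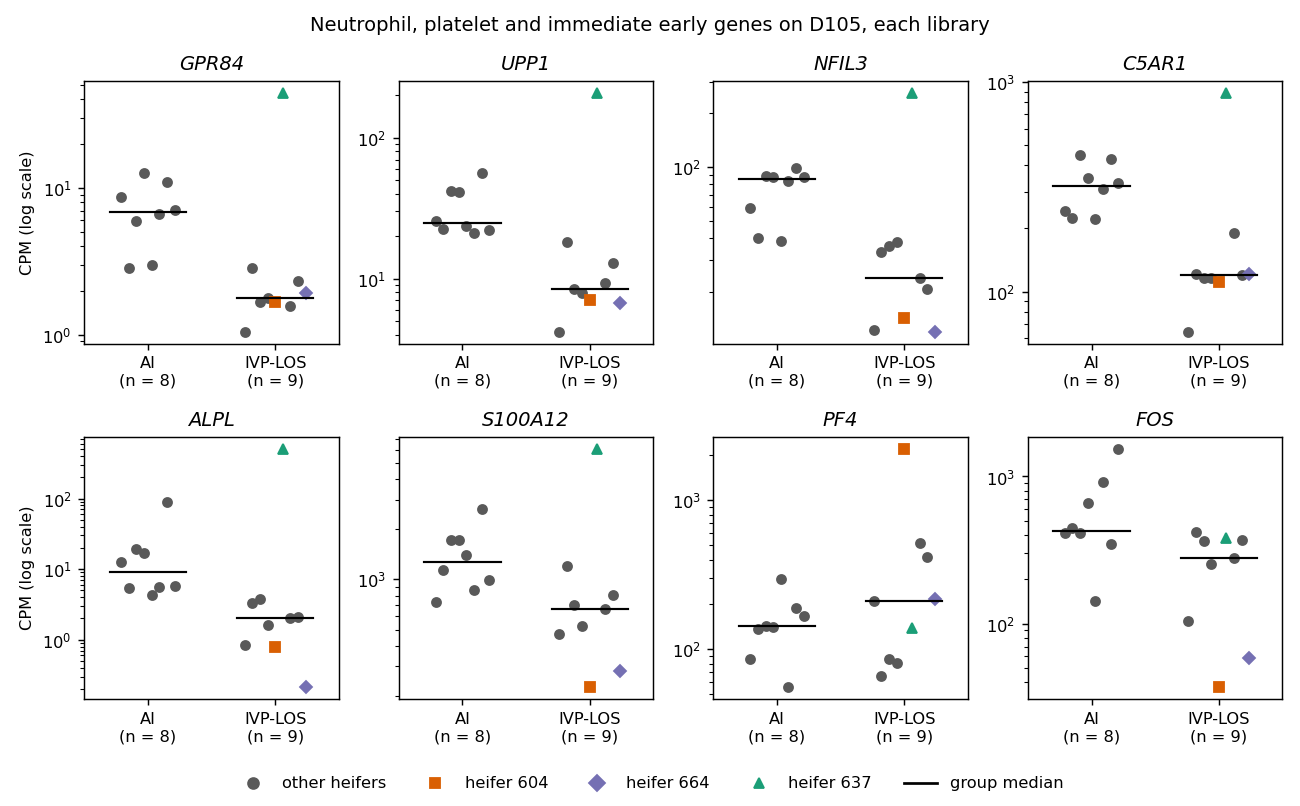
Points are the CPM of single libraries on D105 on a log axis for 6 genes of neutrophils and their activation, the platelet gene *PF4* and the immediate early gene *FOS*, with group medians as lines. Heifer 637 (triangle) lies above every AI library in the first 6 genes and heifer 604 (square) is the highest in *PF4* at 2227 CPM.

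The summed level of monocyte markers was also highest in 637. Their sum was 2210 to 6203 CPM in AI and 675 to 7442 CPM in IVP-LOS, with 604 (675 CPM) and 664 (709 CPM) lowest. Heifer 637 was the highest library in 4 of the 15 markers tested, and by the mean log2(CPM + 1) of the list AI heifer 546 lay above it, at 1.13 over the AI mean against 0.97. The median log2 fold change of 15 markers was -0.49, with 14 below 0 and 0 past the unadjusted limit. It was -0.28 without 604 and 664 and -0.84 without 637. Without 637, 7 of 15 passed, all lower, against 9.69% of all genes lower. On D55 the highest monocyte sum was also that of 637, at 7578 CPM, against at most 6170 CPM in AI. Of 16 monocyte markers listed, 16 were in the table and none was at 0 in all libraries.

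Cytokines and sensors of inflammation had a median log2 fold change of -0.34 over 31 genes. At the unadjusted limit 4 were lower and 0 higher, against 2.72% and 3.04% of all genes. *OSM*, the cytokine oncostatin M, lay between 2.07 and 74.9 CPM in AI (median 19.5) and between 1.49 and 16.6 CPM in IVP-LOS (median 4.36), and all 9 IVP-LOS libraries were below the AI median. Its log2 fold change was -2.14 ± 0.62 (FDR 0.754, quasi-likelihood test). *CXCL8*, which attracts neutrophils, had a log2 fold change of -1.08, *IL1B*, a fever-inducing cytokine, -1.30, and *IL1RN*, the antagonist of the interleukin 1 receptor, -0.99. Without 604 and 664 the median was -0.22 and 2 of the 31 passed as lower, against 1.67% of all genes lower. Without 637, 20 passed, all lower, against 9.69% of all genes lower, and the median was -0.81. Heifer 637 was singled out after its values were seen and was the highest library in 16 of the 31 genes. The fall without it is therefore no separate support.

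Immediate early genes, which are transcribed within minutes of a stimulus and also of handling, had a log2 fold change below 0 in 20 of 24 members, with a median of -0.31. At the unadjusted limit 7 were lower and 0 higher, against 2.72% and 3.04% of all genes. *FOS*, a subunit of the AP-1 factor, lay between 143 and 1548 CPM in AI (median 428) and between 37.1 and 417 CPM in IVP-LOS (median 279), with 604 and 664 lowest. Its log2 fold change was -1.28 ± 0.49. *EGR2*, a zinc finger factor, had -1.52, *ATF3*, a stress-induced factor, -0.93, and *PPP1R15A*, which restores translation after stress, -0.45. The groups overlapped in all 4 genes. The median was -0.36 without 604 and 664, with 3 lower against 1.67% of all genes. Without 637 it was -0.43, with 13 lower and 1 higher against 9.69% and 7.72% of all genes. On D55 it was -0.06.

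Glucocorticoid-responsive genes had a median of -0.17 over 16 genes, with 2 lower at the unadjusted limit, against 2.72% of all genes. *SGK1*, a kinase induced by glucocorticoids, lay between 90 and 596 CPM in AI (median 191) and between 32.7 and 211 CPM in IVP-LOS (median 98.3), a log2 fold change of -1.29 ± 0.45. *DUSP1*, a phosphatase that shuts off MAP kinases, had -1.01. Receptors of pregnancy and growth hormones had a median of -0.18 over 19 genes, with 2 lower at the limit, against 2.72% of all genes. *IFNAR2*, a chain of the type I interferon receptor that also binds interferon tau, had a log2 fold change of -0.44 ± 0.16. *THRB*, a thyroid hormone receptor, had -0.87. The median of the receptors was -0.06 without 604 and 664, where both genes had -0.36 and -0.61, neither past the limit. Without 637 the median was -0.34 with 8 lower, against 9.69% of all genes.

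Platelet genes were higher in IVP-LOS at the unadjusted limit in 9 of 12 members and lower in 0, against 3.04% and 2.72% of all genes. Their median log2 fold change was 1.21. Their sum was 324 to 1125 CPM in AI and 438 to 6756 CPM in IVP-LOS. Heifer 604 held the 6756 CPM, 512 held 1788 and 602 held 1709, and the other 6 IVP-LOS libraries lay between 438 and 1129 CPM. *PF4*, platelet factor 4, lay between 55.5 and 297 CPM in AI (median 142) and between 65.7 and 2227 CPM in IVP-LOS (median 209), a log2 fold change of 1.53 ± 0.64. *SELP*, P-selectin, had 1.27 and *GP9*, a subunit of the von Willebrand factor receptor, 1.61. Without 604 alone, 0 of the 12 passed and the median was 0.47, which was also its value without both 604 and 664. On D55, 4 of the platelet genes were higher and 1 was lower at the unadjusted limit, against 3.8% and 3.94% of all genes, with a median of 0.66. The same heifers were high that day, so D55 is no separate support. *PF4* on D55 was highest in 512 (791 CPM), 604 (726) and 602 (496), against at most 385 CPM in AI. Of 16 platelet genes listed 15 were in the table, and none of the 15 was at 0 in all libraries. Heifer 604 was also the highest in the sum of erythroid genes, at 607 CPM against at most 127.5 CPM in AI. The part of platelets carried into the buffy coat was not tested.

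**Figure D4:**
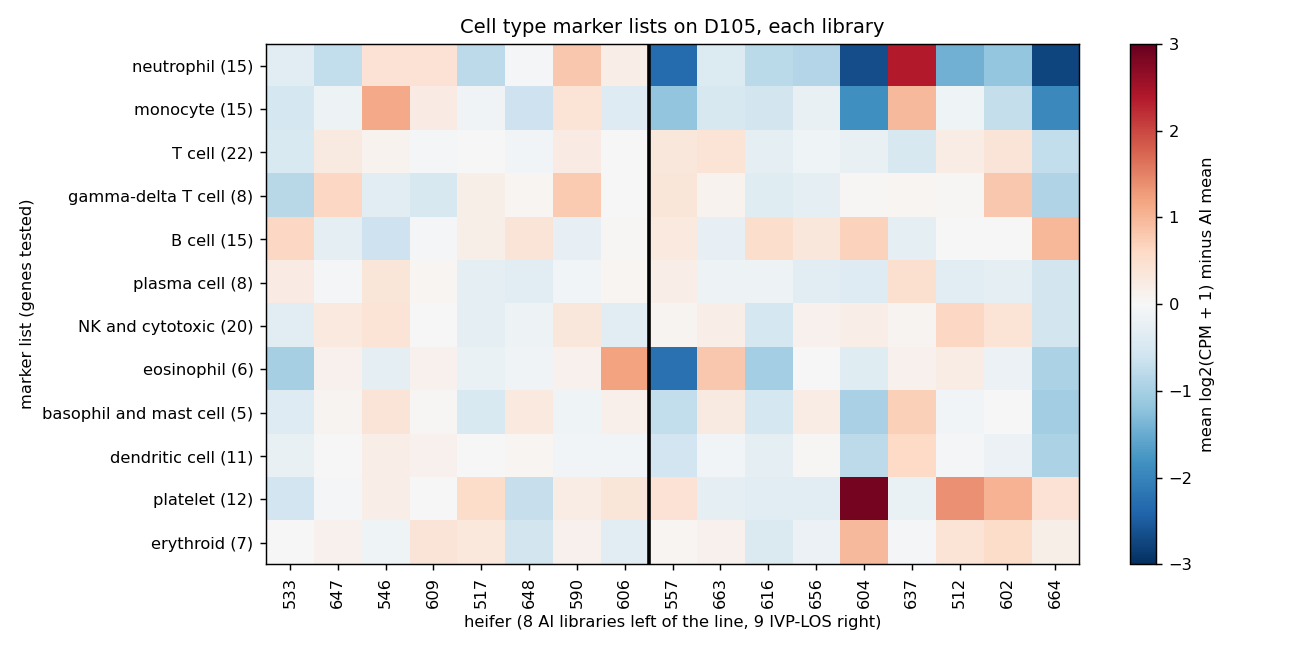
Each column is a library, with AI left of the line and IVP-LOS right, and each line of cells is a marker list with the number of genes tested. Colour gives the mean log2(CPM + 1) of the list minus the AI mean. The neutrophil and monocyte lists are darkest blue in 604 and 664, the neutrophil list is reddest in 637, and the platelet list is reddest in 604.

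The most counted members of the lymphocyte lists were *CD3E*, a chain of the T cell receptor complex, at an AI mean of 512 CPM, and *MS4A1*, the CD20 gene of B cells, at 906 CPM. The median log2 fold change was -0.01 for 22 T cell genes, 0.12 for 8 gamma-delta T cell genes and 0.11 for 20 genes of NK and cytotoxic cells, and 0 genes of each list passed the unadjusted limit. B cell genes had a median of 0.32, with 14 of 15 above 0 and 1 past the limit, against 3.04% of all genes higher. That gene was *CD72*, a B cell coreceptor, at 31.4 to 49.7 CPM in AI and 32 to 74.7 CPM in IVP-LOS (log2 fold change 0.37 ± 0.15). The 2 highest values were those of 604 and 664, and without both the B cell median was 0.09 and 0 passed. The 11 dendritic cell genes had a median of -0.24, with 8 below 0. Only *BATF3*, a factor of cross-presenting dendritic cells, passed the limit, as lower, against 2.72% of all genes. Its log2 fold change was -0.69 ± 0.27. Without 604 and 664 the dendritic cell median was 0.04, and 2 passed as lower, against 1.67% of all genes.

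Genes that respond to interferon, the best known leukocyte signature of early bovine pregnancy, had a median of -0.11 over 41 genes. At the unadjusted limit 1 was lower and 1 higher, against 2.72% and 3.04% of all genes. The median without 604 and 664 was 0.03 with 0 lower and 0 higher. Without 637 it was -0.25 with 8 lower and 1 higher, against 9.69% and 7.72% of all genes. *OAS1X*, an oligoadenylate synthetase, had a log2 fold change of -0.94 and *EPSTI1* one of 0.27, and without 604 and 664 these were -0.73 and 0.15, neither past the limit. MHC class I genes (17 genes) and MHC class II genes (12 genes) both had a median of 0.05. With all 17 libraries 1 class I gene passed the limit, as higher, and 0 class II genes, against 3.04% of all genes. The class I gene was *PSMB10*, an immunoproteasome subunit, at 0.29. *PSMB10* was highest in 664 (277 CPM) and 604 (254 CPM), with AI at 131 to 201 CPM. Without both heifers the medians were 0.03 and -0.04. Then 0 class I genes and 1 class II gene (lower) passed the limit, against 1.67% of all genes lower. Of 8 neutrophil granule genes tested (median -0.24) 1 passed the unadjusted limit, as higher, against 3.04% of all genes. This was *LCN2*, the iron-binding granule protein lipocalin 2. It lay between 11.1 and 39.4 CPM in AI (median 20.9) and between 19.8 and 75.8 CPM in IVP-LOS (median 37.4), a log2 fold change of 0.87 ± 0.27 (FDR 0.754, quasi-likelihood test), and it was 0.61 without 604 and 664.

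Several lists had medians nearer 0 without 604 and 664. Their share of reads on no gene was highest in the NCBI counts and lowest in the Ensembl counts. With the NCBI share as a covariate, edgeR's quasi-likelihood test again called 0 genes, with 200 higher and 447 lower at the unadjusted limit. Ribosomal protein genes had a median of 0.15 over 83 genes, and of 0.00 without this pair. Nuclear genes of the respiratory chain had 0.12 and 0.02 over 83 genes. With all 17 libraries 79 of the 83 were above 0. At the unadjusted limit 1 was lower and 1 higher, against 2.72% and 3.04% of all genes. These were *NDUFV3*, a complex I subunit, at -0.22, and *COX8B*, a cytochrome oxidase subunit, at 0.94. Splicing speckle genes had 0.12 and 0.04 over 36 genes. With all 17 libraries 1 was lower and 2 higher at the unadjusted limit, against the same shares. *LUC7L3*, a splicing factor, lay between 218 and 343 CPM in AI and between 189 and 820 CPM in IVP-LOS, with 820 in 604 and 777 in 664, and its log2 fold change was 0.67 with and 0.17 without the pair. *RSRC1*, another arginine-serine-rich splicing gene, had 0.62 and 0.15. *RSRC1* is not independent evidence, since it was picked in the study from the libraries of this same pair. *DDX39A*, an RNA helicase of messenger export, had -0.42 with and -0.32 without them. Heat shock genes had 0.18 and 0.10 over 24 genes. With all 17 libraries 1 of them passed the unadjusted limit, as higher, against 3.04% of all genes. It was *HSP90AB1*, the constitutive HSP90, with 0.37 and 0.14.

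Imprinted genes linked to fetal overgrowth, some of which are misregulated in LOS fetuses, had a median of 0.16 over the 13 of 24 that could be tested, with 0 past the unadjusted limit. Genes of DNA methylation had 0.04 over 18 genes and cell cycle genes -0.02 over 26, also with 0. Genes of T cell regulation and tolerance had -0.12 over 23, with 0. Plasma cell, eosinophil, basophil and mast cell, and erythroid genes had medians of -0.15, -0.02, -0.17 and 0.36, with 0 past the limit in each. These medians without 604 and 664 were -0.00, -0.14, 0.10 and 0.21.

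**Figure D5:**
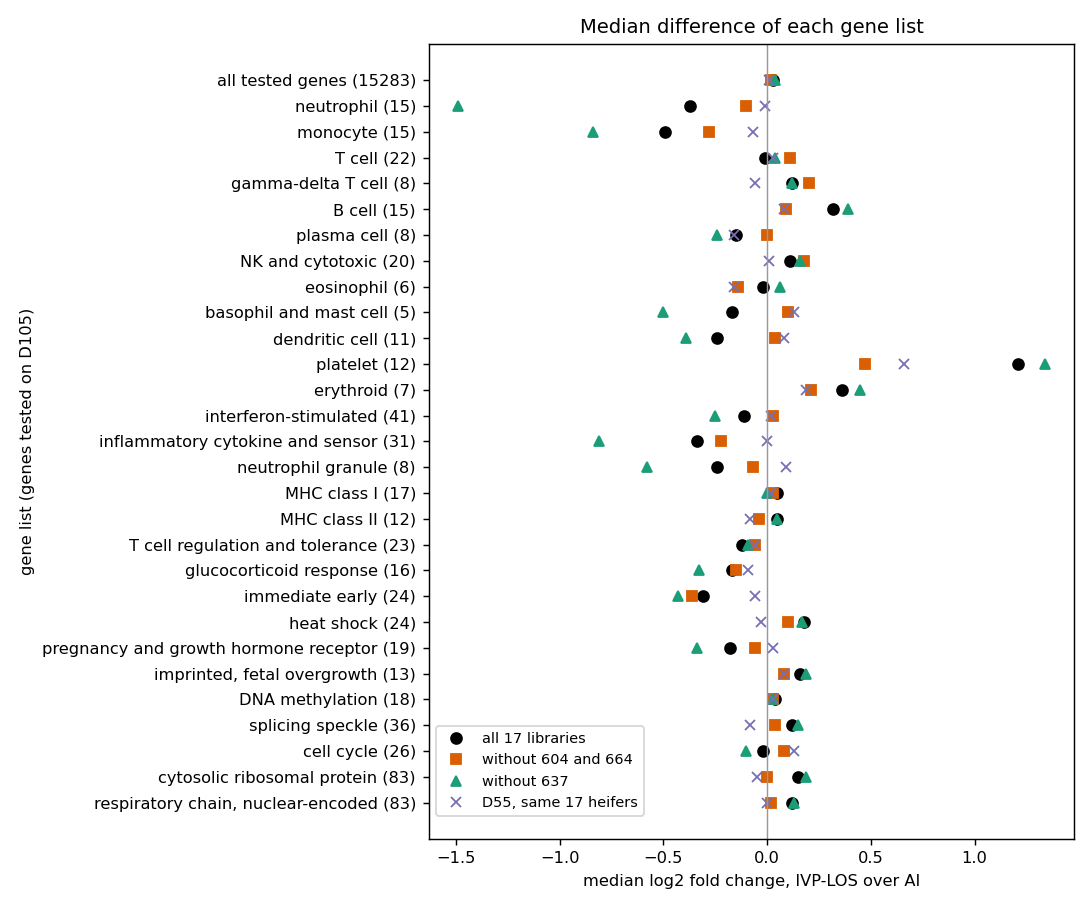
The median log2 fold change (IVP-LOS over AI) of each gene list is plotted for all 17 libraries, without 604 and 664, without 637, and on D55 in the same 17 heifers. The platelet median moves from 1.21 to 0.47 without 604 and 664, and the neutrophil median from -0.37 to -1.49 without 637.

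Whole libraries were then compared by their distances. The mean distance between libraries of different groups exceeded that within groups by 2.28 (exact permutation test over 24310 groupings, two-sided, p = 0.157, 0.284 adjusted over the same 2 measures). Distances are Euclidean over log2(CPM + 1) of the genes tested. The mean distance was 56.9 within AI, 77.2 within IVP-LOS and 70.6 between them. The nearest library was of the same group for 12 of 17. Heifers 664, 604 and 637 had the largest mean distances to the others, at 94.6, 92.1 and 84.8, against 61.3 to 72.9 in the other 14. With each gene scaled to the same variance the excess was 0.203 (exact p = 0.961). Without 604 and 664 it was 1.41 (exact p = 0.321), and without 637, a choice made after seeing the data, it was 6.6 (exact p = 0.00668).

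The same heifers were compared on D55 to see whether differences were present earlier. On D55, 0 of 15236 genes passed FDR 0.05 by edgeR's quasi-likelihood test, with 1179 at an unadjusted p of 0.05 or less (693 without 606). Both likelihood ratio tests called 1 gene, *LOC100849069*, which was lower in IVP-LOS (log2 fold change -4.04 by the edgeR likelihood ratio test). The change from D55 to D105 was then compared between the groups. In that interaction 0 of 16018 genes passed, with 604 genes higher (3.77%) and 191 lower (1.19%) at the unadjusted limit by edgeR's quasi-likelihood test and 0 genes called by either likelihood ratio test. Leaving out heifers 604 and 664, 132 genes were higher (0.824%) and 157 lower (0.98%). The total of 795 was 366 without 604, 343 without 606, 419 without 648, 497 without 557, 529 without 664 and 1669 without 637. The interaction fit above took the libraries of a heifer as independent and so ignored the pairing of the days. With the heifer as replicate block the count was again 0, with 1674 at the unadjusted limit. Of these 867 were higher and 807 lower, so the excess of higher genes was not seen in the paired fit. The genes with the lowest p in the interaction were *LOC112448834*, a long noncoding RNA, *LOC781692* and *LOC112442875*, a small nuclear RNA. Their D105 minus D55 difference between IVP-LOS and AI was 0.80, 1.83 and 2.08 on the log2 scale (FDR 0.909 each by edgeR's quasi-likelihood test). *LOC112448834* lay at 1.73 to 2.74 CPM in AI and 1.18 to 1.8 CPM in IVP-LOS on D55. On D105 it lay at 0.59 to 1.54 and 1.16 to 1.88 CPM. The highest D105 libraries were 664 (3.62 CPM) and 604 (3.03 CPM) in *LOC781692*, and 664 (2.56 CPM) and 604 (1.37 CPM) in *LOC112442875*.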

How the data were processed

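Leukocyte RNA of 23 heifers on D55 and D105 was sequenced, and the 17 AI and IVP-LOS libraries of each day were used. The authors trimmed reads, removed short ones, aligned them to ARS-UCD1.2 with HISAT2 2.1.0 and counted them with the union mode of HTSeq. What was deposited are counts per gene without normalization, on NCBI genes (30675, used here unless stated) and on Ensembl genes (27607). The summary lines of each table, which name no gene, were kept out of library sizes and tests, and reads on no gene were taken from them. The strand setting is not given in the sources used here, so reads of overlapping antisense genes cannot be told apart.

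Counts were scaled by TMM, genes were kept with edgeR's filterByExpr (minimum count 10), and groups were compared in edgeR 4.0.16 (R 4.3.3) with the quasi-likelihood test at FDR 0.05. The likelihood ratio tests of edgeR and DESeq2 1.42.0, other scaling, no filter, covariates, all 23 heifers, 1 factor of unwanted variation and each heifer left out were alternatives. Pairing of D55 with D105 comes from the heifer number in the titles, which marks the same animal. CPM are TMM-scaled within a day. Exact permutation tests ran in Python 3.11.15. Scripts were tested on simulated data. With 18692653 to 24473385 reads on genes per D105 library, genes near 1 CPM rest on few reads, and p-values measure the spread between heifers. The smallest chi-square per degree of freedom between libraries of a group was 23.7 over 64 pairs, so replicates differed by more than sampling noise.

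Named genes were the 10 lowest p in each direction, genes called by both likelihood ratio tests, at most 5 a direction called by only 1 of them, list members at an unadjusted p of 0.05 or less (at most 4 a list), the most counted member of a list, and the 3 lowest p of the interaction. Of 69 genes, 56 came from the rule and 13 were added after their values were seen, and 1 gene that the rule names is not reported here. The comparison and the 28 gene lists were chosen with earlier results of these data known. Gene types came from a RefSeq table of another assembly, so no coordinates or sequences are given.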

Additional observations from a re-analysis of the deposited data

Results flagged for a closer look

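Some libraries stood apart from the rest of their group on D105, by a gap to the nearest library that took up most of the group's range (Dixon's 95% limit). Of 164 groups of values examined 41 did so, each by its highest value, and 23 of the 41 were heifer 637 and 6 heifer 604. The limit is passed by about 1 in 20 groups only where values are normally distributed. CPM were used without a log, so the 41 cannot be set against that rate. The genes include 13 named after their values were seen, and many are counted from the same library, so the 41 are not independent.

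Heifer 637 was the highest IVP-LOS library in *GPR84* (44.3 CPM), *CAPNS2* (10.8), *UPP1* (208), *NFIL3* (259), *OSM* (16.6), *CXCL8* (83.9), *IL1RN* (284), *IFNAR2* (162), *PROK2* (112.998), *ALPL* (511), *IL1R2* (42.4) and *ADGRG3* (106.2 CPM). It was also highest in *BST1* (141 CPM), *S100A8* (1112), *S100A12* (6111), *CXCR2* (826), *C5AR1* (887), *PLAUR* (63.2), *SRGN* (3515), *CFAP54* (21.8) and *LOC104971388* (19 CPM). Its neutrophil markers summed to 16668 CPM and its monocyte markers to 7442 CPM.

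Heifer 604 was the highest IVP-LOS library in the platelet genes *SELP* (40.6 CPM), *GP9* (64.9) and *PF4* (2227 CPM) and in *HSP90AB1* (1585 CPM). Its platelet genes summed to 6756 CPM and its erythroid genes to 607 CPM.

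Among AI heifers, 590 was highest in *PROK2* (19.2 CPM), *ALPL* (88.8), *IL1R2* (37.8) and *ADGRG3* (35.1 CPM). Heifer 606 was highest in *LOC104968627* (3.42 CPM) and *PPP1R15A* (150 CPM), 609 in *LOC107131224* (143 CPM) and *CFAP54* (20.1 CPM), 648 in *EGR2* (120.6 CPM) and 533 in *COX8B* (2.2 CPM). Among IVP-LOS heifers, 616 was highest in *LOC107131224* (28.4 CPM) and 664 in *LOC112442875* (2.56 CPM).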

How the results depend on the processing

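The count of 0 genes called on D105 by edgeR's quasi-likelihood test was also 0 with upper-quartile or RLE scaling, no filter, Ensembl genes, all 23 heifers, the share of reads on no gene as a covariate, and without 604 and 664. It was 11 by the edgeR likelihood ratio test, 43 by DESeq2, 11 by both, 2 by the edgeR likelihood ratio test without 604 and 664, and 907 with 1 factor of unwanted variation. Leaving out 1 heifer gave 0 to 10, with 1 without 616 and 10 without 637. The 43 genes called by DESeq2 became 11 without replacement of outlying counts (11 also without its test of them), 5 without 604 and 664, 202 without 604, 664 and 637, 13 with the covariate, and 13 to 573 with 1 heifer left out. On D55 the count of 0 became 1 by each likelihood ratio test and by both, and 0 to 1 with 1 heifer left out (1 without 648 and without 590). The separation of libraries was 6.6 without 637, and the difference in reads on no gene was -0.0751 without 604 and 664 and -1.17 on Ensembl genes. With the heifer as replicate block, the interaction count was 0 and no call changed.

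Of 1932 pairs of 69 genes and a setting, 1879 had the same direction and 53 in 9 genes were reversed. *LOC101903301* was -0.02 by DESeq2. *GPR84* was 0.15 without 604 and 664 by either edgeR test and -1.95 to 0.03 with 1 heifer left out. *UPP1* was 0.01 with RLE scaling, 0.28 without 604 and 664 by either edgeR test and -1.76 to 0.15 with 1 left out. *S100A8* was 0.19 and 0.20 without 604 and 664, and -1.41 to 0.10 with 1 left out. *S100A12* was 0.10 without the pair by either edgeR test. By DESeq2, with 1 factor of unwanted variation, without 637, and without 604, 664 and 637, *PROK2* was -2.12, -1.50, -2.32 and -2.03, *ALPL* -2.06, -2.09, -3.40 and -3.12, *ADGRG3* -2.15, -1.72, -2.35 and -2.06, and *BST1* -1.71, -1.23, -1.85 and -1.59. With 1 heifer left out the ranges were -2.32 to 1.29 for *PROK2*, -3.40 to 2.54 for *ALPL*, -2.35 to 0.54 for *ADGRG3* and -1.85 to 0.19 for *BST1*, with 637 giving the lowest of each. *ADGRG3* was -0.24 and *BST1* -0.16 with the covariate, and *BST1* was -0.03 with upper-quartile scaling. The cause of these differences was not tested. The leave-out of 637 and the settings without all 3 heifers, without replacement and of DESeq2 with heifers left out were chosen after seeing the data, except that each heifer was to be left out of the quasi-likelihood test.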
